A study of Homo sapiens with 24 samples.

Results

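The genes described here are those of the tumour necrosis factor (TNF) ligand and receptor superfamilies that carry systematic symbols, that is, protein-coding genes whose symbol starts with TNFSF (ligands) or TNFRSF (receptors). There were 33 of them, 12 TNFSF and 21 TNFRSF genes, among 19266 protein-coding genes and 33127 genes of any kind with a row in the count table. They were measured by poly-A RNA-seq in A549, a human lung adenocarcinoma cell line of epithelial origin, grown in medium with fetal bovine serum. Cells received 100 nM dexamethasone (dex), a synthetic glucocorticoid, dissolved in ethanol, or the same volume of ethanol alone (EtOH, 0.02% of the medium), and were harvested after 1, 3, 5, 7, 9 or 11 h. Each of the 12 combinations of treatment and time was represented by 2 libraries, which the labels call biological replicates of this 1 cell line, so the p-values below measure the spread between such libraries.

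Ligands of this superfamily are mostly membrane-anchored proteins that assemble as trimers and can be shed, and their receptors bind them through cysteine-rich extracellular repeats. Some receptors carry an intracellular death domain that can recruit caspase-activating complexes, others bind TRAF adaptors that activate NF-kB and JNK signalling, and decoy receptors bind ligand without a full signalling domain. Glucocorticoids act through the glucocorticoid receptor (GR), a ligand-activated transcription factor known for lowering the expression of inflammatory genes, partly by interfering with NF-kB and AP-1.

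Libraries held between 6708864 and 13748598 counts. The glucocorticoid-induced genes FKBP5, TSC22D3 and PER1 were higher in dex libraries than in EtOH libraries at every time point, except that FKBP5 at 1 h missed the threshold, with a log2 fold change of 0.51 ± 0.14 (SE) and adjusted p = 0.131 in the edgeR quasi-likelihood test. The epithelial markers EPCAM, KRT8, KRT18, KRT19 and CDH1 had counts in these cells and summed to between 3200 and 10500 counts per 1000000 counts of the library (CPM) in each library. Nearly all of it came from KRT8 and KRT18. EPCAM lay between 4.1 and 11.2 CPM and KRT19 between 8.2 and 21.2 CPM, ranges that overlap that of COL1A1 (4.95 to 22.1 CPM). Leukocyte markers summed to between 3.57 and 9.44 CPM, with CD3E at 0 counts in all libraries and PTPRC, the pan-leukocyte marker, at no more than 3. Nearly all of that sum came from CD68 and CD14, lysosomal and myeloid markers with 20 to 67 and 7 to 36 counts in a library, neither of which was called at any time. PECAM1 was not analysed here, and the other fibroblast and endothelial markers summed to between 5.83 and 23.3 CPM, most of it COL1A1. KRT8 and KRT18 were called as higher from 3 h to 11 h, CDH1 as higher at 5 h and 7 h, EPCAM as lower from 5 h to 9 h, KRT19 as lower at 5 h and 9 h, and COL1A1 as higher at 3 h (log2 fold change 0.57) and lower at 5, 7 and 9 h (-1.20, -1.03 and -1.35), and their part in the results below was not tested.

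The highest levels in EtOH libraries were those of receptors, while other receptors, like several ligands, had a median of 0. On a length-scaled scale (TPM, counts divided by transcript length and scaled to a common total per library), TNFRSF1A, the death-domain receptor for TNF itself, had the highest median of the 12 EtOH libraries at 259 TPM, with a range of 229 to 303. It was followed by TNFRSF10B, a death-domain receptor for TRAIL, at 121 TPM (110 to 132), and by TNFRSF12A, the receptor for TWEAK, at 95.9 TPM (78.4 to 136). The ranges of TNFRSF10B and TNFRSF12A overlapped, so their order was not resolved, whereas TNFRSF1A stood above both.

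TNFRSF10D, a TRAIL receptor with a truncated death domain, had a median of 60.3 TPM (52.2 to 65.7). TNFRSF21, the death-domain receptor also called DR6, was at 36.1 TPM (33.0 to 44.5), and TNFRSF10A, the other death-domain receptor for TRAIL, at 18.2 TPM (14.9 to 22). None of these 3 ranges touched its neighbour. The most abundant ligand was TNFSF9, the CD137 ligand, at 4.88 TPM (3.61 to 7.01), and its range overlapped those of TNFSF12 (TWEAK, 2.79 to 4.81), TNFRSF19 (2.98 to 4.75) and TNFRSF11A (RANK, 2.73 to 4.43). TNFSF15, the ligand known as TL1A, had a median of 1.96 TPM (1.32 to 2.86), in a group with TNFSF13B (BAFF), TNFRSF9 (CD137), TNFSF13 (APRIL) and TNFRSF25, the death-domain receptor for TL1A, whose ranges all overlapped it.

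**Figure D1:**
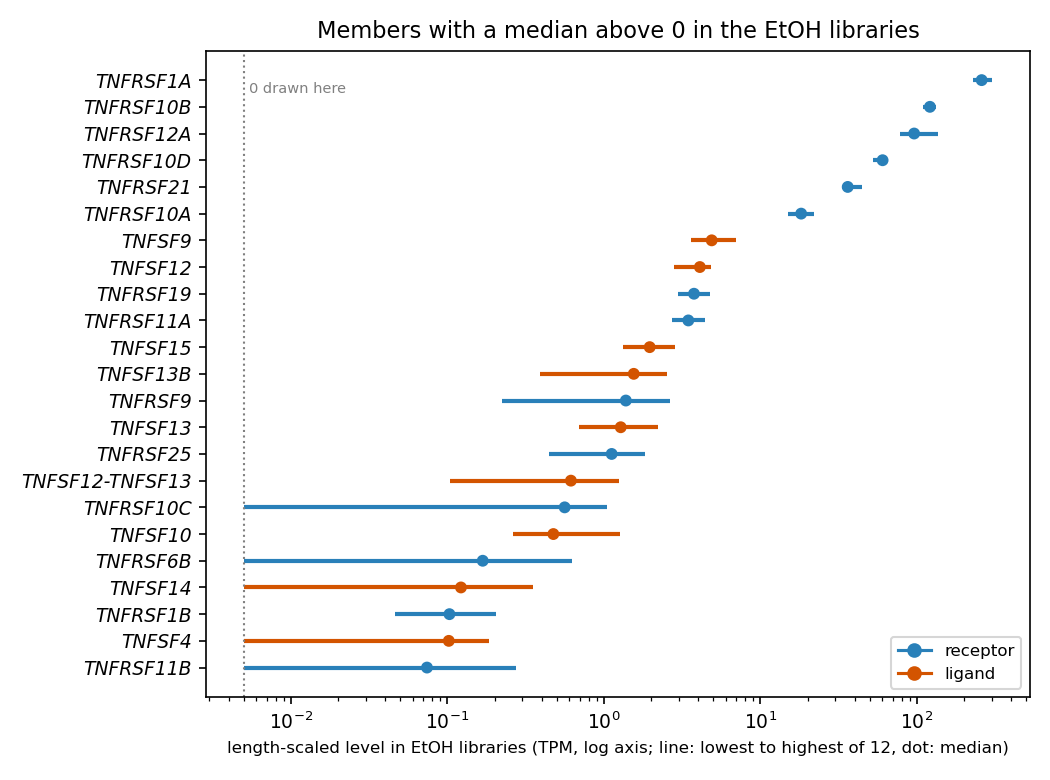
Length-scaled level (TPM, log axis) of the 23 members with a median above 0, each as the median (dot) and lowest to highest value (line) of the 12 EtOH libraries, with receptors and ligands in different colours. The 6 highest members are receptors, from TNFRSF1A at 259 TPM to TNFRSF10A at 18.2 TPM, and lines that reach the dotted mark include a library at 0.

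A filter on low counts left 16 of the 33 genes to be tested, of which 5 were ligands (TNFSF9, TNFSF12, TNFSF13, TNFSF13B and TNFSF15) and 11 were receptors. The other 17 were below the filter and entered no test. TNFSF11 (RANKL), TNFSF18 (the GITR ligand) and TNFRSF18 (GITR) had 0 counts in every library, and TNFSF8, TNFRSF4, TNFRSF8, TNFRSF13B and TNFRSF17 never had more than 1. The highest count in any library was 2 for TNFRSF11B (osteoprotegerin), 3 for TNFRSF14, 4 for the decoy receptor TNFRSF6B, 5 for TNFRSF13C (the BAFF receptor), 9 for TNFRSF1B, 10 for TNFSF14, 11 for the read-through gene TNFSF12-TNFSF13, and 12 for both TNFSF4 (the OX40 ligand) and TNFSF10 (TRAIL).

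Each time point was tested by itself, dex against EtOH, and a gene was called at a Benjamini-Hochberg adjusted p of at most 0.1 over the 15337 genes tested. At 1 h none of the 16 tested members was called, beside 1.06% of all genes tested (0.639% higher and 0.417% lower with dex). A single member, TNFSF15, had an unadjusted p under 0.05 at that time, and DESeq2 also called none. At 3 h 6 members were called, 1 higher and 5 lower, where 14.1% of all genes were called, 8.42% higher and 5.65% lower. At 5 h 7 were called, 1 higher and 6 lower, with 25.0% of all genes called, 12.4% higher and 12.6% lower.

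The count was highest at 7 h, with 9 members called, 2 higher and 7 lower, beside 28.2% of all genes, 14.7% higher and 13.5% lower. At 9 h 7 members were called, each of them lower, beside 19.8% of all genes, 10.8% higher and 8.95% lower. At 11 h 3 were called, 1 higher and 2 lower, beside 9.12% of all genes, 5.80% higher and 3.33% lower. The median log2 fold change over the 16 tested members was -0.12 at 1 h, -0.19 at 3 h, -0.36 at 5 h, -0.53 at 7 h, -0.32 at 9 h and -0.14 at 11 h, while the median over all genes tested stayed between -0.01 and 0.01.

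Over the time course, 12 of the 16 tested members were called at 1 or more time points, where 44.4% of all genes tested were. Of these, 9 were called only as lower and 3 only as higher with dex, and none changed direction between calls. Among the 3, TNFRSF10C passed the filter on low counts only through dex libraries, the group in which it was called as higher. The 32 calls of a member at a time point comprised 27 lower and 5 higher, and repeated calls of 1 gene are not independent. Over all genes tested, calls were more often higher than lower at every time point but 5 h. TNFSF15 and TNFRSF21 were called at 5 time points and TNFSF9 and TNFRSF10D at 4, so 4 of the 16 were called at 4 or more time points, beside 8.10% of all genes. RNA was extracted from whole cultures, so fewer cells with a transcript and less of it per cell cannot be told apart in any of these values.

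**Figure D2:**
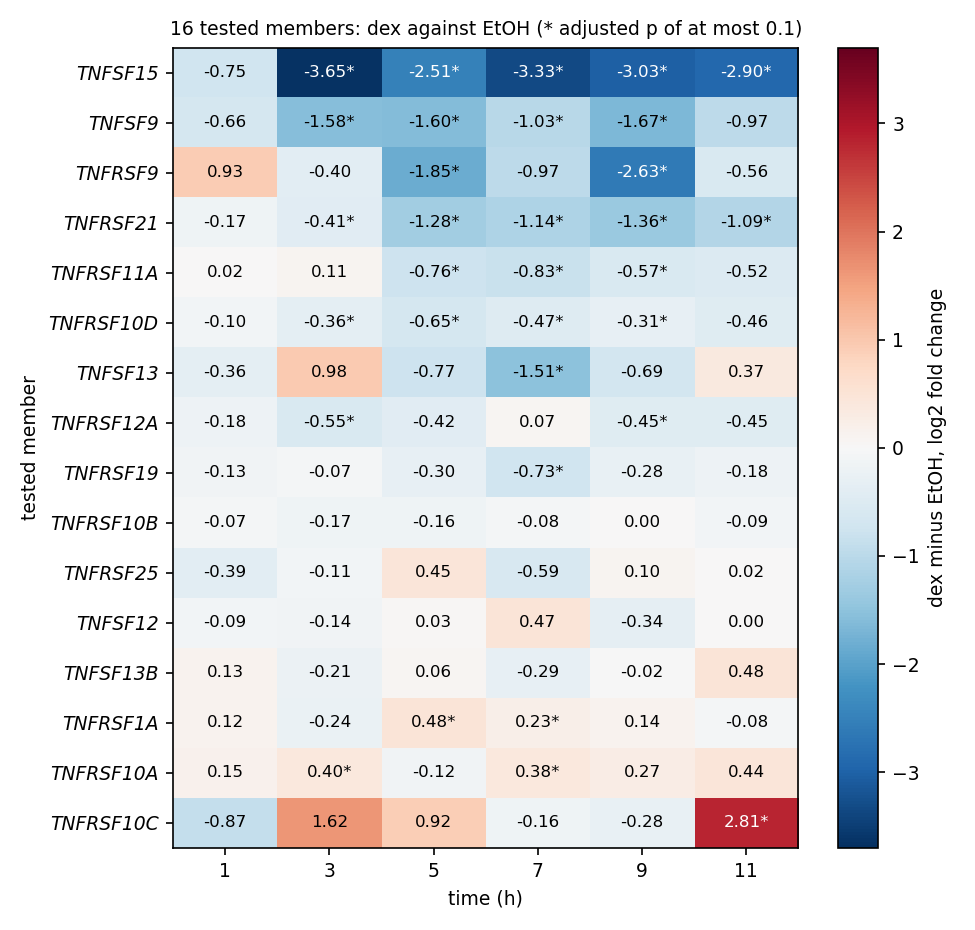
Log2 fold change (dex minus EtOH) of the 16 tested members at 6 time points, ordered by their mean, with blue for lower and red for higher in dex libraries and an asterisk for an adjusted p of at most 0.1 in edgeR. TNFSF15 is at -2.51 or below from 3 h on, and the 3 genes at the bottom, TNFRSF1A, TNFRSF10A and TNFRSF10C, hold the 5 calls in the higher direction.

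The promoters of 4 members are shown, so that those of a ligand and its receptor that were both lower (TNFSF9 and TNFRSF9), of the receptor with the clearest decline (TNFRSF21) and of one that was higher (TNFRSF1A) can be compared. Each is the 250 bases before the RefSeq start in GRCh38.p14, read 5′ to 3′ on the strand of the gene. Capitals mark matches on either strand to the TATA box TATAAA, the AP-1 site TGANTCA, the GR half-site TGTTCT or the NF-kB consensus.
TNFSF9: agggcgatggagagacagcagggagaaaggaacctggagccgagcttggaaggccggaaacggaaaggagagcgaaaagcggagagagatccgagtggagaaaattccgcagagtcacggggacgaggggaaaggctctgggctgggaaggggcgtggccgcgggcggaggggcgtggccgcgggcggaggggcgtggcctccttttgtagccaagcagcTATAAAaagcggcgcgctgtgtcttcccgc
TNFRSF9: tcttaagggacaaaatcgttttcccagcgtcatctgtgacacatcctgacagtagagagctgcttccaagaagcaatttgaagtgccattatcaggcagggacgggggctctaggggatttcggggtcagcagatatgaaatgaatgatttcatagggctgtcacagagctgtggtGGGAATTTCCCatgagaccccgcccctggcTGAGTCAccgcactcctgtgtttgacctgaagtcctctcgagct
TNFRSF21: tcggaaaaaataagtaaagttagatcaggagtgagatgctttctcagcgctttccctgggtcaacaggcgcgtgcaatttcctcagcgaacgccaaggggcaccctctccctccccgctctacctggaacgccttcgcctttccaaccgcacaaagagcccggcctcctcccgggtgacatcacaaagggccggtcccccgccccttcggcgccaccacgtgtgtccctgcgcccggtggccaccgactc
TNFRSF1A: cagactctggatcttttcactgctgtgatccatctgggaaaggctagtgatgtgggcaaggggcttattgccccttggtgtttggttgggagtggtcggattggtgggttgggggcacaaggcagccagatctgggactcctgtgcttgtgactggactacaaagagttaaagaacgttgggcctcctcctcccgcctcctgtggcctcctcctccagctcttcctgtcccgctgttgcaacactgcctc
They lie at chr19:6530776-6531025 (plus strand), chr1:7940840-7941089, chr6:47309906-47310155 and chr12:6342077-6342326 (minus strand).

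The TNFSF9 promoter has a TATA box that begins at position -30 relative to the start, and upstream of it a stretch of 20 bases that occurs 2 times in direct succession. The TNFRSF9 promoter has overlapping NF-kB matches on opposite strands at positions -74 and -73 and an AP-1 match at -44. The windows of TNFRSF21 and TNFRSF1A hold no match to any of these motifs.

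RefSeq windows, which run from 250 bases before to 50 after a start, were at hand for 21 of the 33 members. These 21 genes had 26 windows, of which 4 held the GR half-site, 5 the AP-1 site, 8 the NF-kB consensus and 4 the TATA box. Over all 35116 windows the shares were 14.8%, 7.71%, 11.3% and 11.5%. TNFSF14 had windows that overlap, so by gene the AP-1 site was in 4 and the NF-kB consensus in 7. Of the genes with an NF-kB match, TNFRSF14, TNFSF11 and TNFSF14 were below the filter on low counts. Members without a window included TNFRSF10A to TNFRSF10D, TNFRSF12A and TNFSF12. The full GR element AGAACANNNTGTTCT was in none of the members' windows and in 0.00285% of all windows. For TNFSF15 the RefSeq window lies 13596 bases from the start of TNFSF15-202, the transcript that took most counts, and is therefore not shown. A match is a description of letters only, and whether any factor binds there was not tested.

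TNFSF15 had the largest changes among the tested members. In EtOH libraries it lay between 4.42 and 9.31 CPM at all times. After 1 h of dex its 2 libraries were at 3.81 and 3.00 CPM against 5.81 and 6.05 with EtOH, and the log2 fold change of -0.75 ± 0.26 did not pass the threshold (adjusted p = 0.402). After 3 h they were at 0.412 and 0.816 CPM against 9.31 and 6.75, 12.5-fold lower in the fit. All dex libraries from 3 h onward lay below all EtOH libraries of any time.

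The lower level of TNFSF15 persisted to the end of the series. Dex libraries held 1.19 and 0.88 CPM at 5 h against 5.64 and 6.44 with EtOH, and 0.648 and 0.396 CPM at 7 h against 6.05 and 5.08. At 9 h they held 0.143 and 0.752 CPM against 4.57 and 4.42, and at 11 h 0.706 and 0.907 CPM against 5.29 and 6.90. The log2 fold changes were -3.65 ± 0.36 at 3 h (edgeR adjusted p = 2.36e-08), -2.51 ± 0.34 at 5 h (9.06e-08), -3.33 ± 0.38 at 7 h (2.09e-08), -3.03 ± 0.45 at 9 h (0.000456) and -2.90 ± 0.36 at 11 h (0.000241).

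These TNFSF15 values rest on few counts in the dex libraries. At 3 h the 2 dex libraries held 4 and 9 counts and the EtOH libraries 91 and 81, a ratio of 0.0793 with a 95% exact binomial interval of 0.0414 to 0.139, which covers counting error only. At 9 h they held 1 and 10 counts against 51 and 44, a ratio of 0.12 (0.0582 to 0.225). Leaving out dex replicate 2 at 9 h moved the log2 fold change from -3.03 to -4.83, still called (adjusted p = 0.00296).

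TNFSF15 lies on the minus strand of chromosome 9, and the table holds 2 of its transcripts. TNFSF15-202, with 4 exons and a coding sequence for 251 residues, took 826 of the counts over all libraries (708 in EtOH and 118 in dex libraries). TNFSF15-201, a transcript of 1 exon annotated to encode 174 residues, took 72 (60 and 12). Their coding sequences share the last 458 bases and differ at the start, so the first 90 coding bases of each are shown to tell the counted ligand from the minor form. They were read from the GENCODE 29 transcripts, with the start codon in capitals, and begin at base 114806012 (TNFSF15-202) and base 114790976 (TNFSF15-201) of chromosome 9 in GRCh38.
TNFSF15-202: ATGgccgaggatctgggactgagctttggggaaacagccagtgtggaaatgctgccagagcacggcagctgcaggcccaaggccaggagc
TNFSF15-201: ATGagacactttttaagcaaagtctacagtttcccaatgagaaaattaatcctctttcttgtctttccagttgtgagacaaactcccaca
Of all 50-base stretches of TNFSF15-202, 23.2% also occur in TNFSF15-201, and 56.2% the other way round, so reads of that length can belong to either. From 3 h on TNFSF15-202 had between 1 and 11 counts in dex libraries and TNFSF15-201 between 0 and 2.

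TNFSF9, which binds CD137 and is known for co-stimulating T cells, was the other ligand with repeated calls. EtOH libraries lay between 3.03 and 6.02 CPM. Dex libraries were at 1.34 and 1.72 CPM at 3 h against 4.50 and 4.75, a log2 fold change of -1.58 ± 0.31 (edgeR adjusted p = 0.000807), and at 2.48 and 1.32 CPM at 5 h against 5.74 and 6.02, a change of -1.60 ± 0.31 (6.68e-05). At both times each dex library was below each EtOH library, and the same held at 7 h and 9 h.

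TNFSF9 remained lower later on. Dex libraries held 1.57 and 1.59 CPM at 7 h against 3.41 and 3.03, a log2 fold change of -1.03 ± 0.34 (edgeR adjusted p = 0.0255), and 1.71 and 0.978 CPM at 9 h against 3.95 and 4.22, a change of -1.67 ± 0.36 (0.00618). The 7 h call was lost without dex replicate 1 (adjusted p = 0.207), dex replicate 2 (0.139) or EtOH replicate 1 (0.113), and the 9 h call without dex replicate 2 (0.181). At 1 h and 11 h the changes were -0.66 ± 0.32 and -0.97 ± 0.34, with adjusted p = 0.742 and 0.132.

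TNFRSF9, the receptor CD137 to which TNFSF9 binds, was scarce, with no more than 19 counts in a library. At 5 h it had 4 and 2 counts in dex libraries against 8 and 19 with EtOH, which gave a log2 fold change of -1.85 ± 0.64 (edgeR adjusted p = 0.0343). At 9 h it had 1 and 2 counts against 13 and 8, a change of -2.63 ± 0.74 (0.0305) and a count ratio of 0.149 with a 95% interval of 0.0284 to 0.498. In both cases the groups did not overlap. The 5 h call was lost without dex replicate 2 (0.212) or EtOH replicate 2 (0.406), and the 9 h call without dex replicate 1 (0.136) or dex replicate 2 (0.236). DESeq2 called neither (adjusted p = 0.287 and 0.204). At 1 h the value lay in the other direction, at 0.93 ± 0.64, and was not called (adjusted p = 0.902).

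TNFSF13, the ligand APRIL, which binds receptors of B-lineage cells, was called at 7 h alone. It had 4 and 5 counts in dex libraries against 17 and 12 with EtOH, which gave a log2 fold change of -1.51 ± 0.57 (edgeR adjusted p = 0.0511). DESeq2 gave no adjusted p for it at that time. The call was lost without dex replicate 1 (0.418), dex replicate 2 (0.141) or EtOH replicate 1 (0.237), and at 3 h the value was 0.98 ± 0.57, not called. On chromosome 17 the read-through gene TNFSF12-TNFSF13 overlaps both TNFSF12 and TNFSF13, so reads in exons it shares with either could have been counted for the read-through or for that gene.

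TNFSF12 (TWEAK) and TNFSF13B (BAFF) were never called. TNFSF12 had log2 fold changes between -0.34 and 0.47, and TNFSF13B between -0.29 and 0.48, with SEs of 0.28 or more, so changes of that order were not detectable at this depth.

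Among the receptors, TNFRSF21 changed most clearly. Its EtOH libraries lay between 60.1 and 80.1 CPM. After 1 h dex libraries were at 55.8 and 57.6 CPM against 63.5 and 65.8, a log2 fold change of -0.17 ± 0.12 that was not called (edgeR adjusted p = 0.909), and after 3 h at 49.9 and 49.4 CPM against 64.8 and 66.9, a change of -0.41 ± 0.11 (0.0151). The groups did not overlap at either time, but the distance between them grew afterwards.

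TNFRSF21 stood at 29.8 and 28.8 CPM at 5 h with dex against 70.4 and 75.0, and at 29.7 and 32.9 CPM at 7 h against 60.1 and 77.1. It stood at 28.7 and 27.4 CPM at 9 h against 80.1 and 66.1, and at 32.5 and 29 CPM at 11 h against 64.8 and 66.5. The log2 fold changes were -1.28 ± 0.12 (adjusted p = 1.20e-11), -1.14 ± 0.11 (1.86e-09), -1.36 ± 0.13 (1.49e-05) and -1.09 ± 0.15 (0.000495). From 5 h on the dex libraries thus sat on a plateau at between 38.9% and 47.0% of the EtOH level.

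**Figure D3:**
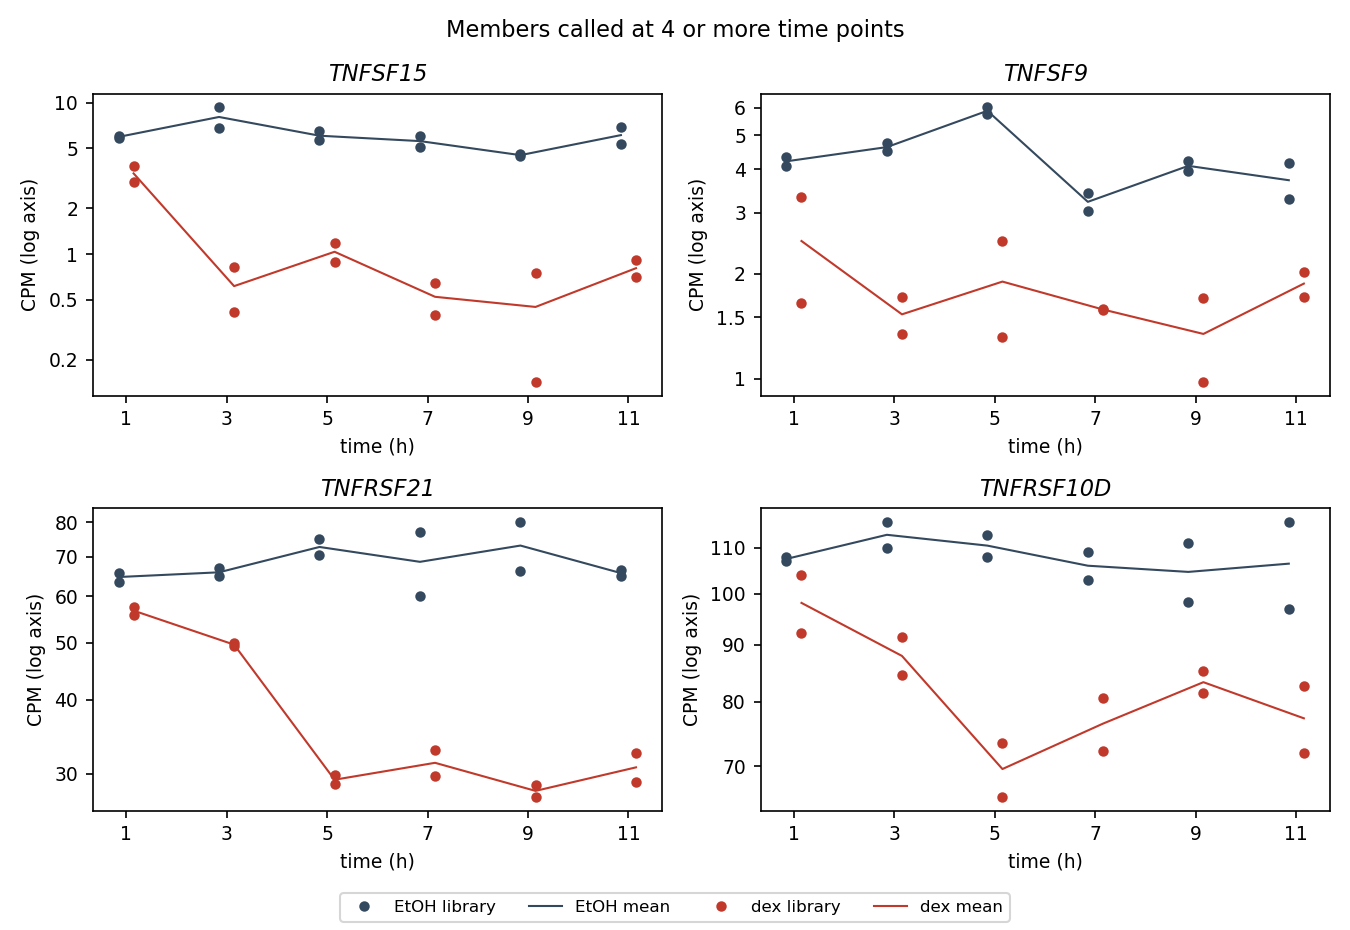
CPM of the 4 members called at 4 or more time points (log axes, time in h), with a dot for each library and a line through the mean of the 2 libraries of a treatment. TNFSF15 falls below 1.20 CPM in dex libraries from 3 h on, while TNFRSF21 reaches its lower level of about 30 CPM only at 5 h.

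The receptors for TRAIL differed among themselves. TNFRSF10D was at 91.4 and 84.5 CPM at 3 h with dex against 116 and 110, a log2 fold change of -0.36 ± 0.10 (edgeR adjusted p = 0.0244), and at 65.7 and 73.5 CPM at 5 h against 108 and 113, a change of -0.65 ± 0.11 (7.38e-06). At 7 h it was at 80.6 and 72.3 CPM against 103 and 109, a change of -0.47 ± 0.09 (7.06e-05), and at 9 h at 85.2 and 81.4 CPM against 111 and 98.3, a change of -0.31 ± 0.11 (0.0889). Dex libraries were below EtOH libraries at all 6 time points. The change of -0.10 ± 0.12 at 1 h was not called (edgeR adjusted p = 0.965). That of -0.46 ± 0.15 at 11 h missed the threshold narrowly, with an edgeR adjusted p that rounds to 0.1. The 3 h call was lost without dex replicate 2 (0.132) or EtOH replicate 1 (0.212), and the 9 h call without dex replicate 1 (0.449) or dex replicate 2 (0.524).

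TNFRSF10A was called as higher. Dex libraries were both at 28.4 CPM at 3 h against 21.5 and 21.6, a log2 fold change of 0.40 ± 0.14 (edgeR adjusted p = 0.0601), and at 24.6 and 25.2 CPM at 7 h against 18.8 and 19.3, a change of 0.38 ± 0.12 (0.0261). The groups were apart at both times, but the 3 h call was lost whichever of the 4 libraries was left out (adjusted p between 0.117 and 0.212), with a replicate block (0.113), with single transcripts (0.12) and with DESeq2 (0.255), and the 7 h call without dex replicate 1 (0.174) or dex replicate 2 (0.192). At 5 h the difference was -0.12 ± 0.14 and not called.

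TNFRSF10C, a decoy receptor for TRAIL that lacks an intracellular part, had 8 and 12 counts with dex at 11 h against 1 and 1 with EtOH. The log2 fold change was 2.81 ± 0.84 (edgeR adjusted p = 0.0699), and DESeq2 gave no adjusted p for it at that time. The ratio of these counts was 7.57 with a 95% exact binomial interval of 1.84 to 66.8. EtOH libraries held more counts at most earlier times, such as 7 and 10 at 1 h and 4 and 8 at 5 h. Dex libraries held 8 and 11 at 5 h, close to their counts at 11 h. The gene passed the filter on low counts only through dex libraries, which reached 1.21 CPM against at most 0.728 CPM with EtOH. The call was lost without dex replicate 2 (0.151), EtOH replicate 1 (0.254) or EtOH replicate 2 (0.337), and at 1 h the value was -0.87 ± 0.72, not called. TNFRSF10B was never called, and its log2 fold changes lay between -0.17 and 0.00 with SEs between 0.08 and 0.13. The 4 TRAIL receptor genes are close paralogs, and how reads that match several of them were placed is not given in the sources used here.

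TNFRSF11A, or RANK, known from osteoclast formation, did not differ early and was lower from 5 h. Dex libraries were at 5.28 and 5.39 CPM at 5 h against 9.95 and 8.61, a log2 fold change of -0.76 ± 0.22 (edgeR adjusted p = 0.0101), at 6.38 and 4.89 CPM at 7 h against 10.6 and 9.67, a change of -0.83 ± 0.20 (0.00215), and at 7.42 and 6.32 CPM at 9 h against 9.87 and 10.5, a change of -0.57 ± 0.21 (0.0875). The groups did not overlap at these times, while at 1 h and 3 h they did. The 9 h call was lost without dex replicate 1 (0.271) or dex replicate 2 (0.518), and the value at 11 h, -0.52 ± 0.24, was not called.

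TNFRSF12A, the receptor Fn14, was at 27.4 and 21.3 CPM with dex at 3 h against 34.3 and 36.8, a log2 fold change of -0.55 ± 0.14 (edgeR adjusted p = 0.0088). At 9 h it was at 32.4 and 42.9 CPM against 55.6 and 49.8, a change of -0.45 ± 0.15 (0.0595). Its libraries of 1 group were far apart at several times, as at 1 h with dex, where they were at 26.6 and 45.0 CPM. The 3 h call was lost without dex replicate 2 (0.124) and in 1 fit over the 24 libraries (0.21). The 9 h call was lost without dex replicate 1, where the value moved to -0.28 (0.597), without dex replicate 2 (-0.68, 0.104), with single transcripts (-0.25, 0.548), in 1 fit over the 24 libraries (0.192) and with DESeq2 (0.131).

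TNFRSF19, a receptor of the family also called TROY, was at 4.72 and 3.43 CPM with dex at 7 h against 7.90 and 5.86, a log2 fold change of -0.73 ± 0.24 (edgeR adjusted p = 0.0261). That call was lost without dex replicate 1 (0.115), dex replicate 2 (0.27) or EtOH replicate 1 (0.273). TNFRSF25 was never called, with values between -0.59 and 0.45 and SEs of 0.52 or more.

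TNFRSF1A, the most abundant member, was called as higher at 5 h and 7 h. Dex libraries were at 263 and 277 CPM at 5 h against 201 and 192, a log2 fold change of 0.48 ± 0.10 (edgeR adjusted p = 0.000234), and at 255 and 238 CPM at 7 h against 212 and 207, a change of 0.23 ± 0.07 (0.0232). At 3 h they were at 160 and 176 CPM against 204 and 193, with the dex libraries below both EtOH libraries, and the change of -0.24 ± 0.10 was not called (0.123). The 7 h call was lost without dex replicate 1 (0.341) or dex replicate 2 (0.132). At 9 h and 11 h the changes were 0.14 ± 0.14 and -0.08 ± 0.13.

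**Figure D4:**
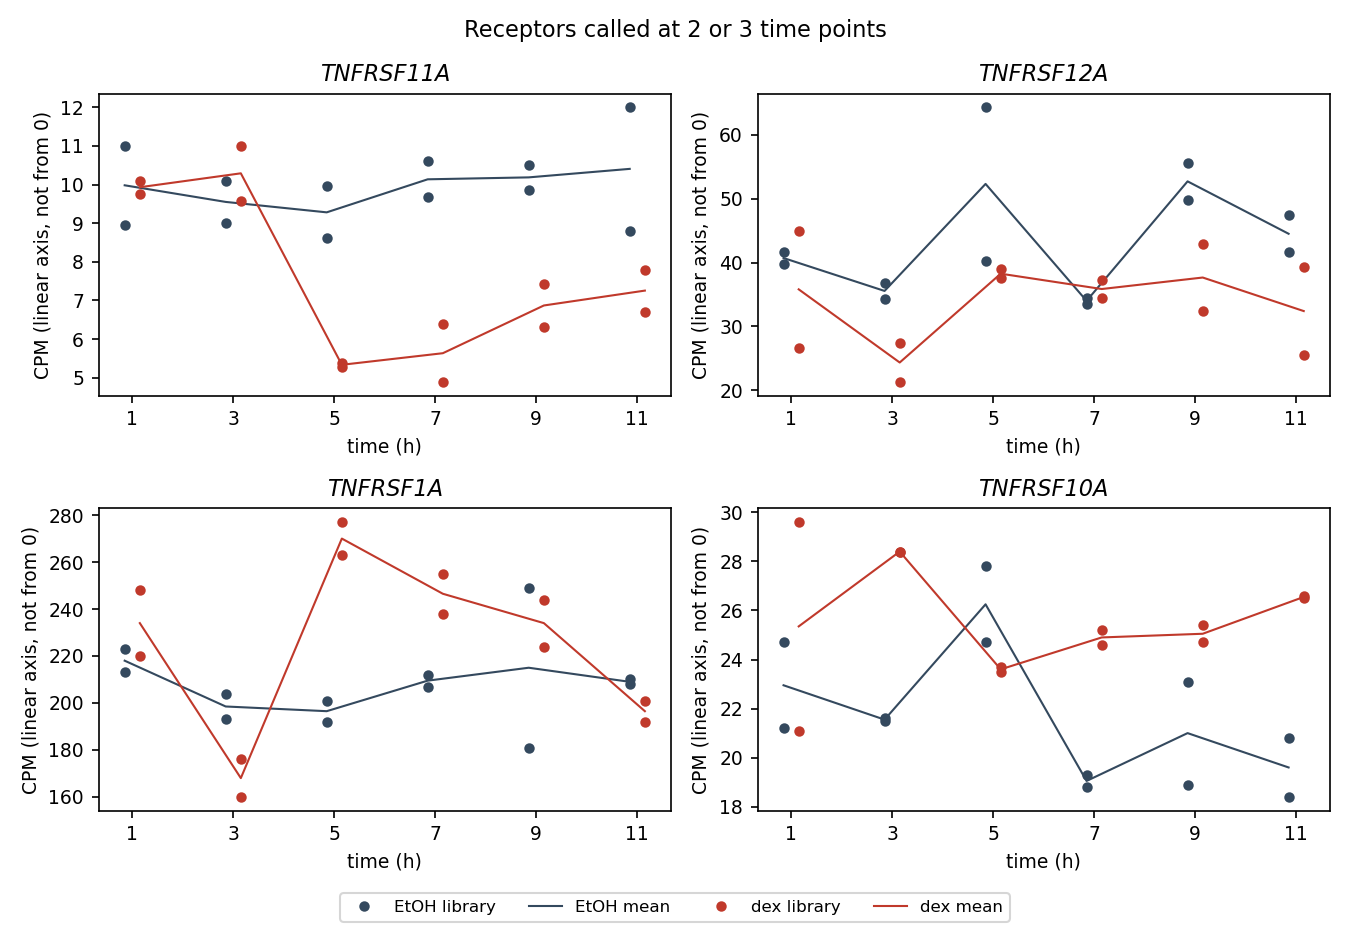
CPM of 4 receptors called at 2 or 3 time points (linear axes that do not start at 0, time in h), with a dot for each library and a line through the mean of the 2 libraries of a treatment. TNFRSF11A drops to between 4.89 and 7.80 CPM in dex libraries from 5 h on, and TNFRSF1A is below both EtOH libraries at 3 h and above them at 5 h and 7 h.

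Whether the dex effect itself differed between the 6 time points was tested in 1 fit over all 24 libraries. It did for 4 of the 16 tested members, TNFRSF21 (edgeR adjusted p = 7.43e-06), TNFSF15 (0.000447), TNFRSF1A (0.0194) and TNFRSF11A (0.0433), beside 15.4% of all genes tested. For TNFSF9 it was not shown to differ (0.37), nor for TNFRSF10D (0.15).

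Placed by ligand and receptor, the data show which partners were present together. TNFSF9 and TNFRSF9 were both called as lower at 5 h and 9 h with edgeR, whereas DESeq2 called TNFRSF9 at neither time. TNFSF15 was lower from 3 h on, while TNFRSF25, its receptor, was not called and TNFRSF6B, its decoy, had at most 4 counts. TNFRSF12A was lower at 3 h and 9 h, while TNFSF12, its ligand, was not called at any time.

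For other receptors the ligand was hardly counted. TNFRSF11A had its ligand TNFSF11 at 0 counts in every library, and TNFRSF1A had TNF, its main ligand, at 0 counts in every library. TNFSF10, which binds TNFRSF10A to TNFRSF10D, had between 0.263 and 1.27 TPM in EtOH libraries. The receptors of TNFSF13 and TNFSF13B, namely TNFRSF13B, TNFRSF13C and TNFRSF17, had at most 5 counts.

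Superfamily genes with other symbols were taken from a list of 7 ligands and 8 receptors. Only CD70 and EDA of the ligands had counts enough to be tested, and LTA, LTB, CD40LG and FASLG had at most 5 counts in a library. CD70 was called at 9 h, at 0.856 and 1.65 CPM with dex against 3.05 and 3.11, a log2 fold change of -1.16 ± 0.37 (edgeR adjusted p = 0.0538), and the call was lost without dex replicate 1 (0.339) and the value moved to -1.81 without dex replicate 2.

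Of the 6 tested receptors of that list, 5 were called at some time, where 44.4% of all genes were, and FAS was not. Among the 5, EDAR passed the filter on low counts only through dex libraries, the group in which it was called as higher. LTBR, the lymphotoxin beta receptor, was higher from 5 h to 11 h, at 54.6 and 48.5 CPM at 7 h against 28.6 and 31.0, a log2 fold change of 0.79 ± 0.11 (edgeR adjusted p = 4.53e-07). Its 9 h and 11 h calls (0.40 ± 0.15 and 0.57 ± 0.18) were each lost when single libraries were left out, namely dex replicate 1, dex replicate 2 or EtOH replicate 1 at 9 h and EtOH replicate 1 or EtOH replicate 2 at 11 h, with adjusted p between 0.206 and 0.685. The 9 h value moved to 0.21 without EtOH replicate 1 and 0.60 without EtOH replicate 2, and the 11 h value to 0.31 without dex replicate 2. EDAR, a receptor of ectodermal development, was higher at 9 h (2.89 ± 0.62, edgeR adjusted p = 0.00625) and 11 h (1.63 ± 0.49, 0.0742). At 9 h it had 1 and 4 counts with EtOH against 12 and 25 with dex. EtOH libraries held 4 and 12 counts at 1 h and 5 and 5 at 11 h. Dex libraries reached 1.94 CPM, against at most 0.874 CPM with EtOH.

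RELT was lower at 5 h (-1.40 ± 0.33, adjusted p = 0.000982) and 7 h (-1.05 ± 0.32, 0.0145), and EDA2R at the same times (-0.57 ± 0.18, 0.0182, and -0.66 ± 0.15, 0.0014). CD40 was called as lower at 5 h alone (-1.19 ± 0.49, 0.0841), with 6 and 7 counts against 17 and 19, and that call was lost whichever library was left out (0.17 to 0.26). Without dex replicate 1 the RELT value at 5 h moved to -2.10. DESeq2 did not call LTBR at 9 h or 11 h (adjusted p = 0.219 and 0.147) or EDAR at 11 h (0.417). Nor did it call RELT at 7 h (0.172), EDA2R at 5 h (0.124), CD40 at 5 h (0.408) or CD70 at 9 h (0.228). With single transcripts both EDA2R calls were lost (adjusted p = 0.291 at 5 h and 0.194 at 7 h). The EDA2R call at 5 h was lost without dex replicate 2 (0.117), the RELT call at 7 h without dex replicate 1 (0.145) or dex replicate 2 (0.117), and the EDAR call at 11 h without EtOH replicate 1 (0.289) or EtOH replicate 2 (0.437).

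Downstream of the receptors, a list of 39 receptor-proximal signalling genes (adaptors, kinases, ubiquitin-editing enzymes, caspases and sheddases) had 37 tested members. Of these, 18 were called at some time, where 44.4% of all genes tested were, and 13 at 2 or more consecutive time points, where 20.8% of all genes tested were. Of the 13, the mean over time was higher with dex for 8 and lower for 5. RIPK3 had 0 counts in every library, and IKBKE was not analysed here.

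The 8 with the largest mean changes among those 13 included 5 that rose. BIRC3, an inhibitor of apoptosis that binds TRAF adaptors, was higher at all 6 time points, from 38.2 and 39.4 CPM with EtOH to 172 and 139 with dex at 1 h, a log2 fold change of 2.03 ± 0.13 (edgeR adjusted p = 8.09e-09). TNFAIP3, the ubiquitin-editing enzyme A20 that restrains NF-kB signalling, was also higher at all 6, from 5.47 and 4.22 CPM to 11.8 and 9.91 at 1 h (1.21 ± 0.23, 0.00879) and up to 2.02 ± 0.22 at 9 h. Both genes were thus among the 1.06% of all genes tested that were called at 1 h.

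TNIP1, a partner of TNFAIP3, was higher at 5 time points with a maximum of 0.92 ± 0.12 at 5 h. CFLAR, the caspase-8 inhibitor FLIP, was higher at 5 with a maximum of 0.68 ± 0.08 at 7 h (0.43 at that time with single transcripts), and MLKL, the effector of necroptosis, at 5 with a maximum of 1.16 ± 0.15 at 11 h. MAP3K5, a kinase upstream of JNK and p38, was lower at 3 time points, most at 5 h (-1.40 ± 0.26). MAP3K14, the kinase of the non-canonical NF-kB pathway, was lower at 3, most at 3 h (-0.97 ± 0.16), and TRAF3, its negative regulator, at 4, most at 9 h (-0.62 ± 0.12). Leaving out EtOH replicate 2 at 1 h took the 1 h value of TNFAIP3 from 1.21 to 1.01 and ended that call (adjusted p = 0.347), and leaving out 1 library of 9 h ended the TRAF3 call there (0.129 without dex replicate 1, 0.11 without dex replicate 2). Calls of CFLAR at 9 h and 11 h, MAP3K14 at 9 h and 11 h, MAP3K5 at 9 h, TNIP1 at 3, 9 and 11 h, TRAF3 at 5 h and 11 h and TNFAIP3 at 3 h were likewise lost when 1 library was left out, whereas no call of BIRC3 or MLKL was.

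**Figure D5:**
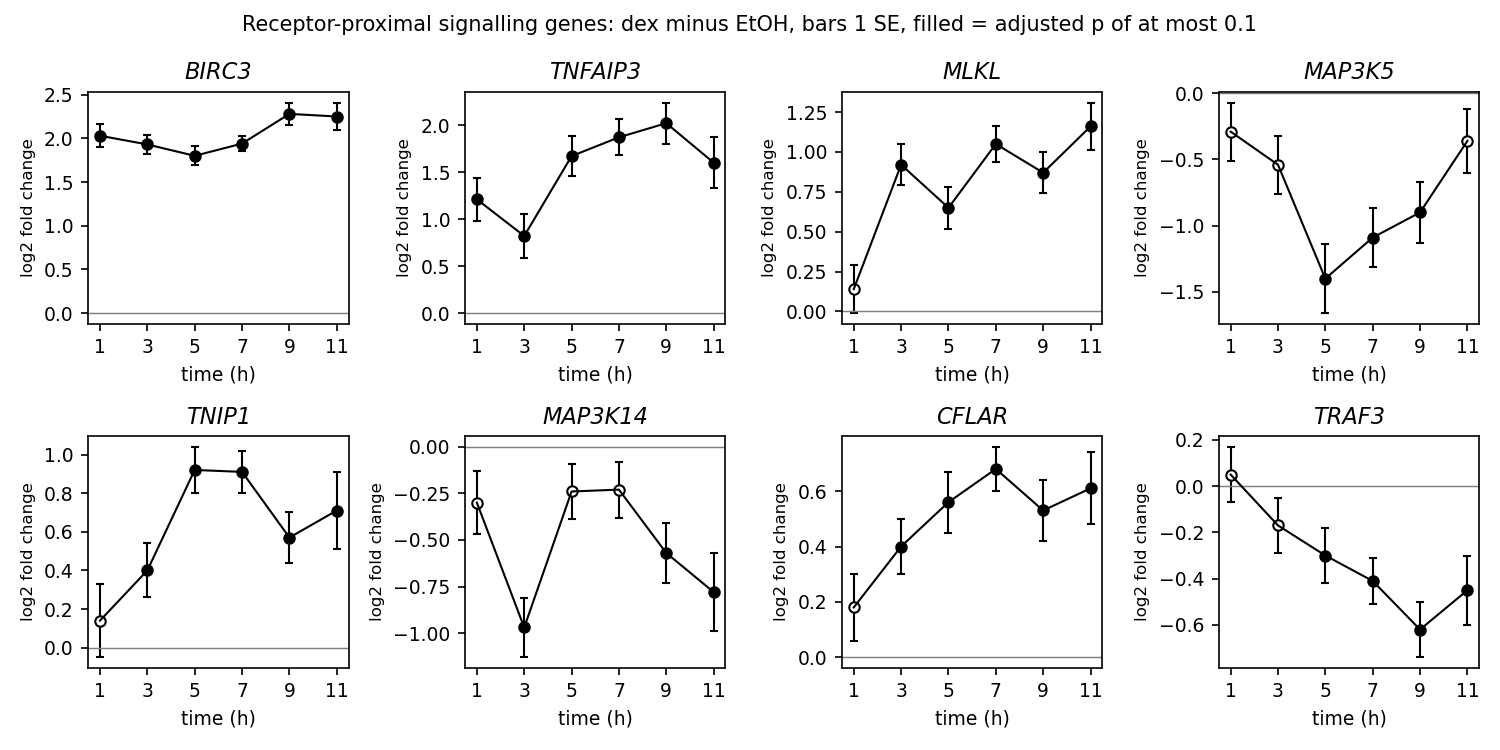
Log2 fold change (dex minus EtOH, with 1 SE as bars) of 8 receptor-proximal signalling genes over time in h, with filled points for an adjusted p of at most 0.1 in edgeR. BIRC3 and TNFAIP3 are above 0 and filled at all 6 time points, and MAP3K5 dips to -1.40 at 5 h.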

How the data were processed

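Members and gene lists were chosen with earlier results of these data known. Libraries were stranded and poly-A selected. The authors placed the 50-base single-end reads on GENCODE 19 transcripts (Bowtie 0.12.9) and deposited whole-number read counts per transcript from samtools idxstats 1.3.1 (hg19). How multi-mapping reads were placed, and whether strand was used in counting, is not given in the sources used here. The labels' treatment text gives 1 h for each library, so times were taken from the labelled duration; the study's methods describe triplicates, and 2 libraries per group were analysed.

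Transcripts were assigned to genes by their GENCODE 29 identifier without version (110262 of 119207 transcripts, with 94.1% of the counts) and summed per gene. Dex was compared with EtOH at each time in edgeR 4.0.16 (R 4.3.3) by the robust quasi-likelihood F-test after TMM scaling and filterByExpr (15337 genes), two-sided, with Benjamini-Hochberg adjustment over all of them and a call at an adjusted p of at most 0.1. CPM values are TMM-scaled over the 24 libraries. The SE of a log2 fold change was derived from its F statistic. The biological coefficient of variation was between 6.49% and 12.7%. The procedure was tested on simulated data first, in which only well-counted genes were changed, so that test does not cover calls of the scarce members. Alternatives were DESeq2 1.42.0, its size factors, other count filters, a threshold of 0.05, single transcripts, a replicate block, 1 fit over the 24 libraries, and leaving out each library.

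Every member was named. Those called at any time are given with values per library, those never called with their range, and those under the filter with their highest count. From the lists, superfamily genes called at any time and the 8 signalling genes with the largest mean change among those called at consecutive time points were named. The marker lists and glucocorticoid targets served as checks. The leukocyte list is reported without 1 gene that was first listed.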

Additional observations from a re-analysis of the deposited data

Results flagged for a closer look

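For 4 members the dex effect differed between the 6 time points in the edgeR test of the 5 differences from 1 h over 24 libraries. TNFRSF21 (adjusted p = 7.43e-06) went from -0.17 ± 0.12 at 1 h to -1.36 ± 0.13 at 9 h, with dex libraries below EtOH libraries at each time. TNFSF15 (0.000447) went from -0.75 ± 0.26 at 1 h to -3.65 ± 0.36 at 3 h. TNFRSF1A (0.0194) was at -0.24 ± 0.10 at 3 h and 0.48 ± 0.10 at 5 h. TNFRSF11A (0.0433) was at 0.11 ± 0.18 at 3 h and -0.83 ± 0.20 at 7 h. What lies behind these differences was not tested.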

How the results depend on the processing

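Of the 32 calls of a member at a time point, 17 held under every alternative that gave a value, among them all 5 calls of TNFSF15 and all 5 of TNFRSF21, and 15 were lost under 1 or more. With at least 10 counts in every library TNFSF15 was not tested at these times, so that alternative gave no value for it. No alternative value of these calls had the opposite sign, over 377 values, from which 2 DESeq2 results without an adjusted p were left out. These 2 were TNFSF13 at 7 h and TNFRSF10C at 11 h, which DESeq2 therefore did not call. With DESeq2 the count of members called fell from 9 to 5 at 7 h and from 7 to 3 at 9 h, and the DESeq2 adjusted p of the calls it ended was 0.255 for TNFRSF10A at 3 h, 0.287 for TNFRSF9 at 5 h, 0.23, 0.211 and 0.196 for TNFSF9, TNFRSF10A and TNFRSF19 at 7 h, and 0.204, 0.248, 0.326 and 0.131 for TNFRSF9, TNFRSF10D, TNFRSF11A and TNFRSF12A at 9 h. A threshold of 0.05 and the use of single transcripts each left 4 members at 9 h. At 11 h, where 3 were called, the count was 5 with no filter on low counts and 1 with at least 10 counts in every library. Under that last filter TNFSF15 and TNFRSF10C were not tested. It was 7 in 1 fit over 24 libraries, where the calls over all genes also rose, from 1399 to 2478. Leaving out each library in turn, where the lone library of a group is assumed to vary like the other group, gave between 0 and 1 members at 1 h, 4 and 9 at 7 h, 2 and 8 at 9 h, and 2 and 6 at 11 h. The count fell at 7 h and 9 h and rose at 11 h whichever of the 2 dex libraries was left out. Leaving out an EtOH library moved it less at these times. At 1 h it moved only without dex replicate 2. The cause was not tested. The counts at 3 h, 5 h and for the change with time stayed within 1.5 times under all alternatives run. The superfamily, signalling and glucocorticoid target genes named from the lists had 66 calls. Of these, 45 held under every alternative that gave a value and 21 were lost under 1 or more.

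Same-numbered libraries correlated in their deviations from the group means by 0.366, -0.218, 0.04, 0.0287, 0.21 and 0.0148 from 1 h to 11 h, so the replicate numbers were not taken as pairs. With a replicate block the count of members called was 1 at 1 h and 5 at 11 h, and the call of TNFRSF10A at 3 h was lost (adjusted p = 0.113). Crossing the numbers at 3 h, chosen after seeing that correlation, gave 7 members and 3597 of all genes called, against 6 and 2159 without a block and 1862 of all genes with the numbers as labelled. Over all genes, the block took the calls from 162 to 583 at 1 h, and DESeq2 gave 1208 at 3 h, 2348 at 5 h, 2464 at 7 h and 1831 at 9 h against 2159, 3834, 4324 and 3033 with edgeR. With 2 libraries per group and as few as 1 count, fold changes of the scarce members are imprecise.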

Other observations

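Among the members below the filter, TNFRSF1B, the TNF receptor that lacks a death domain, had 59 counts over the 12 dex libraries and 26 over the 12 EtOH libraries. At 11 h it had 8 and 9 counts with dex against 2 and 1, and at 5 h 7 and 5 against 1 and 3. At 1 h it had 2 and 4 against 1 and 5, and at 7 h 2 and 1 against 1 and 1. In the edgeR fit with no filter on low counts its log2 fold change was 2.04 at 11 h, with an adjusted p = 0.246, and it was not called. TNFSF4, the OX40 ligand, had 12 and 4 counts with dex at 11 h against 0 and 3, which was not called either in that fit (edgeR adjusted p = 0.301). Both are picked from the 17 members below the filter. Of the others, TNFSF14 also had more counts over the dex libraries (44 against 18). TNFSF10 (54 against 73) and TNFRSF13C (3 against 10) had fewer.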
